A study of Mus musculus with 6 samples.

Results

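Solute carriers are membrane proteins that move ions, metals, amino acids, sugars, nucleosides, vitamins and metabolites across the plasma membrane and the membranes of organelles. Their genes carry the prefix Slc, or Slco for the organic anion transporters. In the intestine the absorptive carriers are known mainly from mature villus cells, whereas dividing and secretory crypt cells are known for carriers that load chloride for fluid secretion, import amino acids for growth and fill secretory granules with zinc. Most carriers of the inner mitochondrial membrane belong to the Slc25 family.

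The solute carrier genes were taken by name, as every listed gene whose symbol starts with Slc or Slco followed by a digit. There were 153 of them among 7120 listed genes. They were sorted by substrate into 21 ion, 19 metal, 27 amino acid and peptide, 13 sugar, 17 nucleoside and nucleotide sugar and 6 amine and neurotransmitter genes, 19 mitochondrial carriers and 31 carriers of organic acids, vitamins, lipids and drugs. A few of these are no transporters of their own. Slc9a3r1 and Slc9a3r2 encode scaffold proteins named for the exchanger they bind, Slc2a4rg-ps is a pseudogene, and Slc10a3-ubl4 is a joint transcript of neighbouring genes.

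Both genotypes were C57BL/6 mice aged 3 months, and the RNA came from ileal crypts cut out by laser microdissection of Methacarn-fixed sections. Tl1a-tg mice carry a transgene for the cytokine TL1A (3 libraries), and WT mice do not (3 libraries). The labels give neither the promoter of the transgene nor a separate mouse for each library, so the deposited p-values may measure a technical spread. The question was which crypt genes differ between Tl1a-tg and WT.

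The values available for each gene are 1 fitted mean per genotype and the authors' own log2 fold change (Tl1a-tg over WT). The fold change comes with its standard error (SE) and, for some genes, a p-value. Fitted means are called reads per library at a common depth here, although no read counts were at hand to set that scale. Library values differed from the fitted mean by a factor shared by all genes, so the fitted means carry no SD, and the value of a gene in each library is its fitted mean times that factor. In replicate order these multipliers were 1.01, 1.10 and 0.781 in the Tl1a-tg libraries, against 1.34, 0.591 and 1.46 in the WT libraries. The sums over listed genes were 376022 to 530625 in Tl1a-tg and 314186 to 774249 in WT. Solute carriers made up 0.921% of all fitted reads in Tl1a-tg, against 0.869% in WT. A genotype at the lowest shared fitted value (0.193 in Tl1a-tg, 0.176 in WT) or below 0.01, called near 0 here, was taken to have no reads. That reading is inferred from the values. Fitted means are not corrected for transcript length, so they are compared between genotypes and not between genes. In these bulk samples fewer cells of a type and less RNA per cell cannot be told apart.

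Crypt identity was checked on marker genes. All 6 Paneth cell markers were read in both genotypes, with a summed fitted mean of 28240 in Tl1a-tg, against 32720 in WT, and 4 of 5 stem cell markers were listed, with sums of 1136 in Tl1a-tg, against 969 in WT. Within these lists the stem cell marker Lgr5 had 131 in Tl1a-tg, against 0.342 in WT, and the goblet cell marker Agr2 had 186 in Tl1a-tg, against no reads in WT. The 4 listed goblet cell markers summed to 12770 in Tl1a-tg and 13390 in WT, mostly the mucin gene Muc2. The 3 enteroendocrine markers summed to 29.1 in Tl1a-tg and 114 in WT, with Chga at no reads in both. The 4 listed enterocyte markers summed to 218 in Tl1a-tg and 58.1 in WT, with the apolipoprotein gene Apoa1 at no reads in both, and the 4 tuft cell markers summed to 24.3 in Tl1a-tg, against 262 in WT. The 1 listed T cell marker, Cd8b1, had no reads in Tl1a-tg, against 128 in WT. The 4 fibroblast and smooth muscle markers summed to 200.2 in Tl1a-tg, against 54.8 in WT, and the myeloid and B cell lists to 11.4 and 3.23 in Tl1a-tg and 3.15 and 1.12 in WT. Acta2 and Csf1r had no reads in either genotype, and none of the 3 endothelial markers was listed. The part of these other cells in the carrier values was not tested.

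Most solute carrier genes were read in at most 1 genotype. With a limit of 10 reads per library, 28 genes (18.3%) were measured in both genotypes, against 19.4% of all listed genes. Another 35 (22.9%) reached the limit in Tl1a-tg and had no reads in WT, against a background of 25.3% of all listed genes. The opposite held for 11 (7.19%), with no reads in Tl1a-tg, against a background of 12.4%. No reads in either genotype were found for 38 (24.8%), against 17.9% of all genes, and the remaining 41 had low values in at least 1 genotype. The families as a whole thus lay near the background in the share read in Tl1a-tg only, and below it in the share read in WT only, a difference that was not tested.

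**Figure D1:**
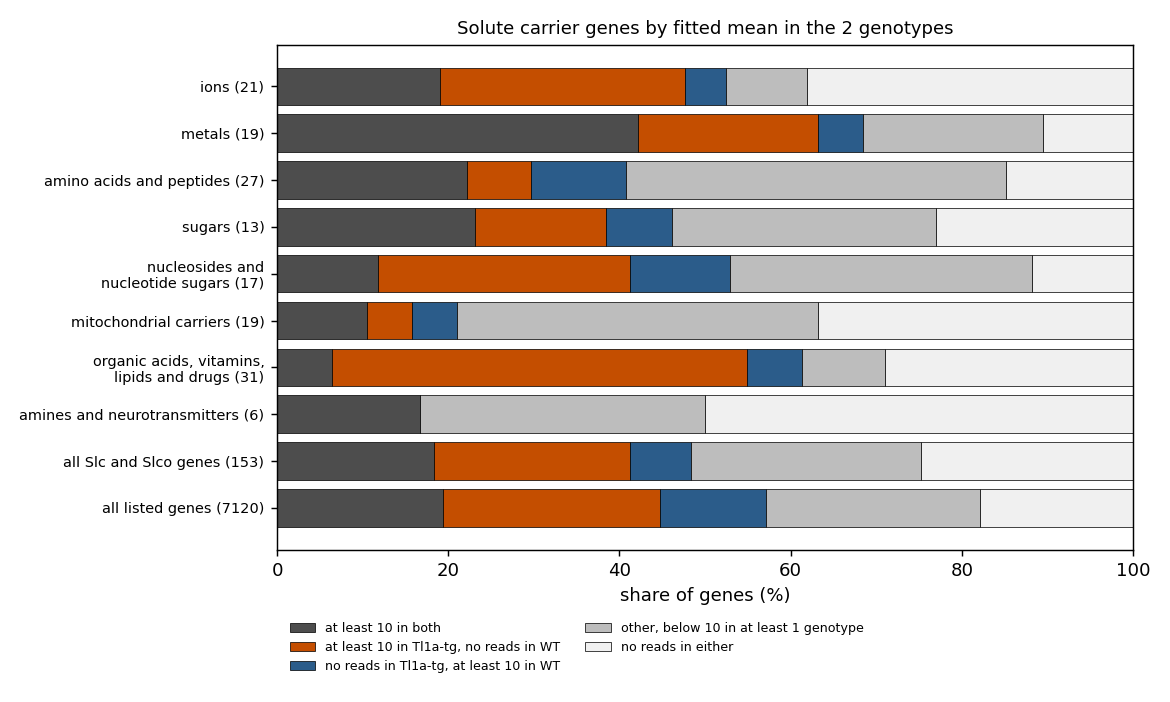
Shares of solute carrier genes in 5 classes by fitted mean, one bar for each substrate group, for all 153 solute carrier genes and for all 7120 listed genes (number of genes in brackets, x axis in percent). Carriers of organic acids, vitamins, lipids and drugs have the widest Tl1a-tg-only segment of the 8 groups (15 of 31 genes), and metal carriers the widest segment measured in both genotypes (8 of 19).

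Only 2 solute carrier genes passed the authors' test, and both were lower in Tl1a-tg. Slc28a3 encodes a concentrative nucleoside transporter that takes up purine and pyrimidine nucleosides with sodium or protons, and Slc25a3 encodes the carrier that brings phosphate into mitochondria for ATP synthesis. Slc28a3 was listed near 0 in Tl1a-tg, with a fitted mean of 218 in WT. Slc25a3 was listed near 0 in Tl1a-tg, with 103 in WT. The authors' deposited table lists for Slc28a3 a log2 fold change of -24.48 ± 4.41 (SE, adjusted DESeq2 p = 4.06e-06). For Slc25a3 the authors' deposited table lists -23.14 ± 4.41 (log2, SE, adjusted p = 1.01e-05 by DESeq2). The shrunken log2 fold change in the authors' deposited table was -0.17 for each of these genes.

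The authors' deposited table gives an adjusted p-value for 35 solute carrier genes. Of these 2 were called lower in Tl1a-tg at an adjusted p below 0.05, beside 1.2% of the 1662 genes adjusted, and 0 were called higher by DESeq2, beside 2.47%. An unadjusted p-value exists for 60 solute carrier genes. It was below 0.05 and the gene higher in Tl1a-tg for 6 of them, beside 10.7% of the 2580 genes with a p-value, and lower for 3, beside 3.91%.

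Genes without reads in a genotype differed in the value fitted to that genotype, and their fold changes with it. Slc48a1, a haem transporter of endosomes and lysosomes, also had no reads in Tl1a-tg, against 168 in WT, but its empty genotype lay at 0.193 in place of near 0. The authors' deposited table lists for Slc48a1 a log2 fold change of -9.77 ± 4.41 (SE, DESeq2 p = 0.0267, adjusted p = 0.23). With the near-0 means of all genes placed at the lowest shared value, Slc28a3 had a log2 fold change of -10.15 and Slc25a3 one of -9.05 (adjusted p = 0.355 for each by DESeq2's Wald statistic, recomputed). Then 0 of the 153 genes were called, and 9 of the 60 with a p-value (15%) had an unadjusted Wald p below 0.05, beside 13.6% of the 2580 genes with one. The recomputed adjustment ran over these 2580 genes, whereas the deposited one covers 1662. Deposited DESeq2 p-values, adjusted over the same 2580 genes without moving any mean, gave 6.3e-06 for Slc28a3 and 1.57e-05 for Slc25a3. For Slc48a1, whose p did not change, they gave 0.34, and the recomputed adjusted p was 0.355.

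The other genes with an unadjusted p below 0.05 were higher in Tl1a-tg, and none passed after adjustment. Slc38a7, a lysosomal glutamine exporter, had 105 in Tl1a-tg and no reads in WT. Slc35a3, which brings UDP-N-acetylglucosamine into the Golgi for glycan synthesis, had 75.1 in Tl1a-tg and no reads in WT. Slc44a1, a choline transporter, had 88.3, Slc33a1, which brings acetyl-CoA into the endoplasmic reticulum, had 87.1, and the glycine transporter gene Slc6a9 had 84.7, each with no reads in WT. Slc25a5, an ADP/ATP exchanger of mitochondria, had 61.9 in Tl1a-tg, against 0.342 in WT. In the authors' deposited table these 6 had p-values of 0.0364 to 0.0498 and adjusted DESeq2 p-values of 0.23 to 0.232.

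A p-value was missing for 93 of the 153 genes in the authors' deposited table, including 35 of the 46 read in 1 genotype only. Some of these had fold changes as large as those of the called genes. Slc2a1, the glucose transporter of many dividing cells, was listed near 0 in Tl1a-tg and had 114 in WT, for which the authors' deposited table lists -23.58 ± 4.41 (log2, SE). Slc16a6, of the monocarboxylate family, had 91.4 in Tl1a-tg and was listed near 0 in WT, for which the authors' deposited table lists 22.62 ± 4.41 (log2, SE). The deposited values do not give the reason for a missing p-value.

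Among ion carriers, the 4 measured in both genotypes had negative log2 fold changes, with intervals that spanned 0. Slc12a2, the sodium-potassium-chloride cotransporter that loads crypt cells with chloride for secretion, had 296 in Tl1a-tg, against 494 in WT (log2 fold change -0.74, 95% interval -5.87 to 4.39, authors' deposited table). Slc12a8, of the same family, had 100.04 in Tl1a-tg and 253 in WT (-1.34, 95% interval -7.72 to 5.04, same table). The bicarbonate transporter genes Slc4a7 and Slc4a2 had 71.8 and 45.2 in Tl1a-tg, against 124 and 53.5 in WT. The median of these 4 genes was -0.76, beside -0.38 for all 1379 genes measured in both genotypes. Of those 1379, the log2 fold change was positive for 512 and negative for 867.

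Most other ion carriers with reads had them in one genotype. Of the 21 ion genes, 6 (28.6%) reached the limit in Tl1a-tg and had no reads in WT, beside 25.3% of all genes. The opposite held for 1 (4.76%), beside 12.4%. Slc4a5, a sodium-bicarbonate cotransporter, had 50.8 in Tl1a-tg and no reads in WT, and the potassium-chloride cotransporter gene Slc12a7 had 47.6 in Tl1a-tg and no reads in WT (DESeq2 p = 0.0668 in the authors' deposited table). Slc4a4, which brings bicarbonate in across the basolateral membrane, had no reads in Tl1a-tg, against 33.2 in WT. The scaffold gene Slc9a3r1 had 0.334 in Tl1a-tg and 36.5 in WT. The sodium-proton exchanger gene Slc9a8 had 26.3 in Tl1a-tg and no reads in WT. Neither phosphate transporter, Slc20a1 or Slc34a2, was read in either genotype. Slc4a4, Slc9a3r1, Slc9a8, Slc20a1 and Slc34a2 were named after their values were seen.

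Metal carriers held the largest share of genes measured in both genotypes, 8 of 19, with 4 positive and 4 negative log2 fold changes and a median of -0.34, which turned to 1.02 over the 15 genes with a mean over both genotypes of at least 10 and to 0.04 with the median of all measured genes set to 0. Slc41a1, a magnesium transporter, had 170 in Tl1a-tg, against 52.1 in WT (log2 fold change 1.70, 95% interval -5.44 to 8.85, authors' deposited table). Slc30a2, which moves zinc into vesicles and is known from the secretory granules of mouse Paneth cells, had 101 in Tl1a-tg and 49.9 in WT (log2 fold change 1.02, 95% interval -7.31 to 9.35, authors' deposited table). Fitted means of zinc importers lay in either direction. Slc39a9 had 61.9 in Tl1a-tg and 10.1 in WT, whereas Slc39a8, which also carries manganese, had 16.7 in Tl1a-tg, against 136 in WT, and Slc39a3 had 21.8 in Tl1a-tg, against 119 in WT. The authors' deposited table lists log2 fold changes of 2.62 (95% interval -5.73 to 10.96), -3.03 (-10.57 to 4.51) and -2.45 (-10.79 to 5.88) for these genes.

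Slc39a4, the zinc importer of the apical membrane whose loss in mice is known to harm Paneth cells, had 58.9 in Tl1a-tg and no reads in WT. Its deposited log2 fold change was 8.39 (95% interval -0.25 to 17.03) without a p-value. Other metal genes were named after their values were seen. Slc39a7, which releases zinc from the endoplasmic reticulum, had 61.2 in Tl1a-tg, against 54.4 in WT. The copper importer gene Slc31a1 had 21.5 in Tl1a-tg, against 58.7 in WT. Slc30a5, a zinc transporter of the early secretory pathway, had 55.8 in Tl1a-tg and no reads in WT.

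Among amino acid carriers 6 of 27 genes were measured in both genotypes. Their log2 fold changes were positive for 4 and negative for 2, with a median of 0.27. The neutral amino acid transporter Slc1a5, an importer of glutamine, had 111 in Tl1a-tg, against 47.3 in WT, and its relative Slc1a4 had 68.5 in Tl1a-tg, against 41.2 in WT. The arginine and lysine importer Slc7a1 had 130 in Tl1a-tg and 100.2 in WT. For Slc1a5, Slc1a4 and Slc7a1 the authors' deposited table lists log2 fold changes of 1.23 (95% interval -7.09 to 9.56), 0.73 (-6.97 to 8.44) and 0.38 (-6.42 to 7.18). These intervals are wide, so sizeable differences in either direction are not excluded.

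Fitted means of the sodium-coupled Slc38 genes lay in either direction, and none passed after adjustment. Slc38a1, a glutamine importer, had 175 in Tl1a-tg and 2.57 in WT. For Slc38a1 the authors' deposited table lists a log2 fold change of 6.09 (95% interval -0.39 to 12.57, DESeq2 p = 0.0656, adjusted p = 0.258). Slc38a10 had 18.8 in Tl1a-tg, against 97.2 in WT, and Slc38a6 had 27.4 in Tl1a-tg, against 34.0 in WT. Slc38a9, a lysosomal carrier that senses arginine for the growth kinase mTOR, had no reads in Tl1a-tg, against 65.9 in WT, and Slc38a2 had none in either, although the authors' deposited table lists a mean of 4.48 for it over the libraries of their model. The last 2 were named after their values were seen.

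Heteromeric amino acid exchangers pair a heavy chain with one of several light chains. The heavy chain gene Slc3a2 had 97.1 in Tl1a-tg, against 86.9 in WT, while its light chain partners were read unevenly. Slc7a5, the light chain for large neutral amino acids, had 86.0 in Tl1a-tg and 5.02 in WT (DESeq2 p = 0.337, from the authors' deposited table). Slc7a10, the light chain for small neutral amino acids, had 0.311 in Tl1a-tg and 119 in WT, without a p-value. The cystine-glutamate exchanger gene Slc7a11 had no reads in Tl1a-tg, against 3.02 in WT, and Slc7a8 had 0.375 in Tl1a-tg and no reads in WT. Of the peptide transporters, Slc15a1, the apical di- and tripeptide importer of villus cells, had no reads in either genotype, and Slc15a2 had none in Tl1a-tg, against 58.4 in WT. Slc7a5, Slc7a11, Slc7a8 and the Slc15 genes were named after their values were seen.

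**Figure D2:**
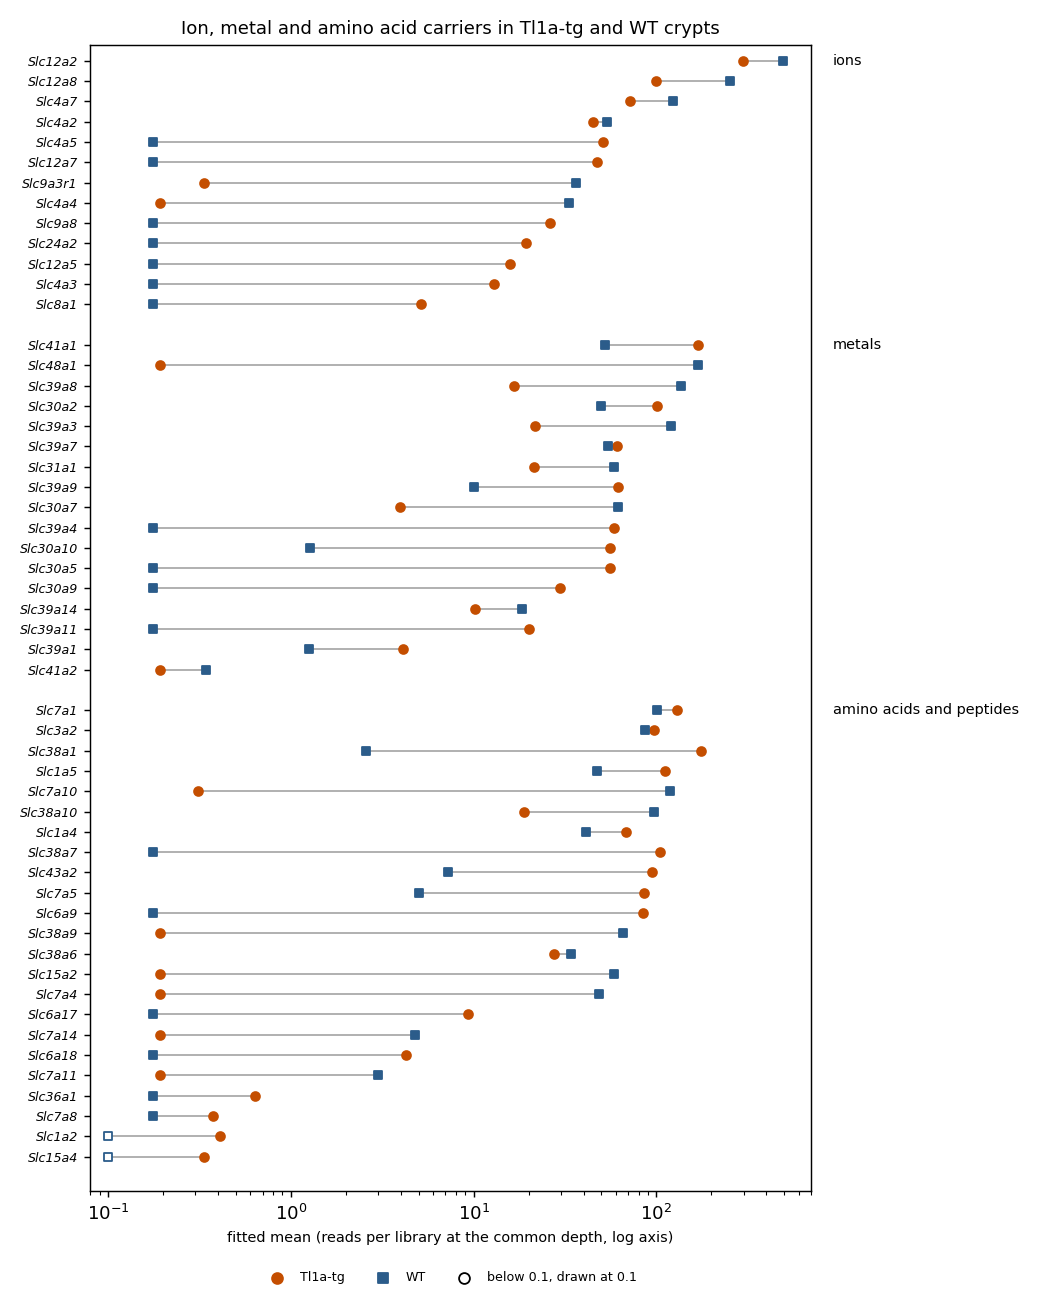
Fitted means of ion, metal and amino acid carriers in reads per library (log axis, common depth), with a circle for Tl1a-tg and a square for WT on each gene's line; open marks are values below 0.1, drawn at 0.1, and genes without reads in either genotype are left out. Slc12a2, Slc12a8, Slc4a7 and Slc4a2 lie to the right in both genotypes, whereas many other genes have one mark near 0.18, the value of a genotype without reads.

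Of the 13 sugar carriers, 3 (23.1%) were measured in both genotypes, beside 19.4% of all listed genes. The facilitative transporter Slc2a10 had 64.4 in Tl1a-tg and 69.2 in WT, Slc37a3, a relative of the glucose-6-phosphate carrier, had 49.8 in Tl1a-tg, against 32.3 in WT, and Slc50a1, a glucose transporter of the SWEET family, had 16.3 in Tl1a-tg, against 54.1 in WT. For Slc2a10, Slc37a3 and Slc50a1 the authors' deposited table lists log2 fold changes of -0.10, 0.63 and -1.73, each with an SE of 4.25. Slc2a5, the fructose importer of the apical membrane, had 0.375 in Tl1a-tg and 59.7 in WT, without a p-value. Slc5a1, the sodium-glucose cotransporter of absorptive cells, named after its values were seen, had 29.7 in Tl1a-tg and no reads in WT. The pseudogene Slc2a4rg-ps had 35.8 in Tl1a-tg and no reads in WT.

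Among nucleoside carriers, Slc28a3 was the 1 concentrative transporter listed. The equilibrative transporter Slc29a1, which passes nucleosides down their gradient, had 38.8 in Tl1a-tg and no reads in WT, and the lysosomal Slc29a3 had no reads in Tl1a-tg, against 1.08 in WT. The Slc29 genes were chosen after their values were seen. Many Slc35 carriers feed nucleotide sugars to the glycosylation enzymes of the Golgi and endoplasmic reticulum, and secretory cells use them for mucin glycans. Of 14 listed Slc35 genes, 2 were measured in both genotypes. The UDP-galactose carrier Slc35a2 had 34.2 in Tl1a-tg, against 123 in WT, and the GDP-fucose carrier Slc35c1 had 29.7 in Tl1a-tg, against 63.8 in WT, with deposited log2 fold changes of -1.84 (95% interval -10.17 to 6.49) and -1.10 (-9.13 to 6.92) and no p-value. Slc35a3 was read in Tl1a-tg only, as given above. Slc35f2, grouped here by its family name only, had 0.375 in Tl1a-tg and 64.2 in WT. Values for these Slc35 genes thus lay in both directions.

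Mitochondrial carriers were summed at 311 reads per library in Tl1a-tg and 841 in WT. Of the 8 with a mean over both genotypes of at least 10, the log2 fold change was positive for 2 and negative for 6, beside 2521 positive and 2017 negative of all 4538 such genes. The coenzyme A carrier Slc25a42 was read in both genotypes, with 169 in Tl1a-tg and 293 in WT (log2 fold change -0.79, 95% interval -5.71 to 4.12, authors' deposited table). The glutamate carrier Slc25a22 had 46.5 in Tl1a-tg and 45.4 in WT. Slc25a35 had 1.83 in Tl1a-tg, against 175 in WT, and the authors' deposited table lists a log2 fold change of -6.58 (95% interval -15.00 to 1.83, DESeq2 p = 0.125). Slc25a27, of the uncoupling protein branch, had 0.665 in Tl1a-tg and 109 in WT, without a p-value.

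The carriers that supply ATP synthase with its substrates had fitted means in opposite directions, as given above: the phosphate carrier Slc25a3 was read in WT only, and the ADP/ATP exchanger Slc25a5 had 0.342 in WT. Slc25a51, which brings NAD into mitochondria, had 19.1 in Tl1a-tg and no reads in WT. The calcium-regulated ATP-Mg/phosphate carrier Slc25a25, named after its values were seen, had 6.36 in Tl1a-tg and 73.2 in WT. There were 7 mitochondrial carriers without reads in either genotype, among them the dicarboxylate carrier Slc25a10 and the oxoglutarate carrier Slc25a11, also chosen after their values were seen.

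Carriers of organic acids, vitamins, lipids and drugs were read mostly in Tl1a-tg. They summed to 1061 reads per library in Tl1a-tg, against 317 in WT, and 15 of 31 (48.4%) were read in Tl1a-tg only, beside 25.3% of all genes. That share was the largest of the substrate groups, and the difference was not tested. Only 2 of the 31 (6.45%) were measured in both genotypes, beside 19.4% of all genes. Of the 19 with a mean over both genotypes of at least 10, the log2 fold change was positive for 16 and negative for 3, beside 2521 positive and 2017 negative of all such genes. A DESeq2 p-value was given by the authors for 9 of the 31, and it was below 0.05 unadjusted and the gene higher in Tl1a-tg for 2, Slc44a1 and Slc33a1, beside 10.7% of all genes with a p-value, and below 0.05 adjusted for 0. Slc16a10, which carries aromatic amino acids out of the cell, was read in both genotypes, with 165 in Tl1a-tg and 67.1 in WT (log2 fold change 1.30, 95% interval -3.52 to 6.12, DESeq2 p = 0.598, from the authors' deposited table). Slc16a7, a lactate and pyruvate transporter, had 26.6 in Tl1a-tg and 108 in WT.

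Vitamin and choline carriers made up part of this group. The ascorbate transporter Slc23a1 had 116 in Tl1a-tg and no reads in WT, Slc23a2 had 49.9 in Tl1a-tg, against none in WT, and their relative Slc23a3 had no reads in Tl1a-tg, against 91.3 in WT, all without a p-value. Of the 5 choline transporter-like Slc44 genes, 4 were read in Tl1a-tg only, beside 25.3% of all genes, and Slc44a2 was not read. The 4 had fitted means of 24.8 to 88.3 in Tl1a-tg. Their means over the libraries of the authors' model were 1.66 to 8.89. Over the 46 solute carrier genes read in 1 genotype only, the model mean was at least 0.0669 of the fitted mean, with a median of 0.067. The 2 values may thus not share a scale, and their sizes are not compared. The folate carrier Slc19a1 had 33.3, the butyrate and lactate cotransporter Slc5a8 36.3, the lactate exporter Slc16a3 42.2 and the organic anion transporter Slco3a1 72.3 in Tl1a-tg, each with no reads in WT. Slc10a2, the ileal bile acid importer of villus cells, had 1.57 in Tl1a-tg and 0.342 in WT. Apart from Slc23a1, Slc23a3 and Slc44a1, these vitamin, choline and acid carriers were named after their values were seen.

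**Figure D3:**
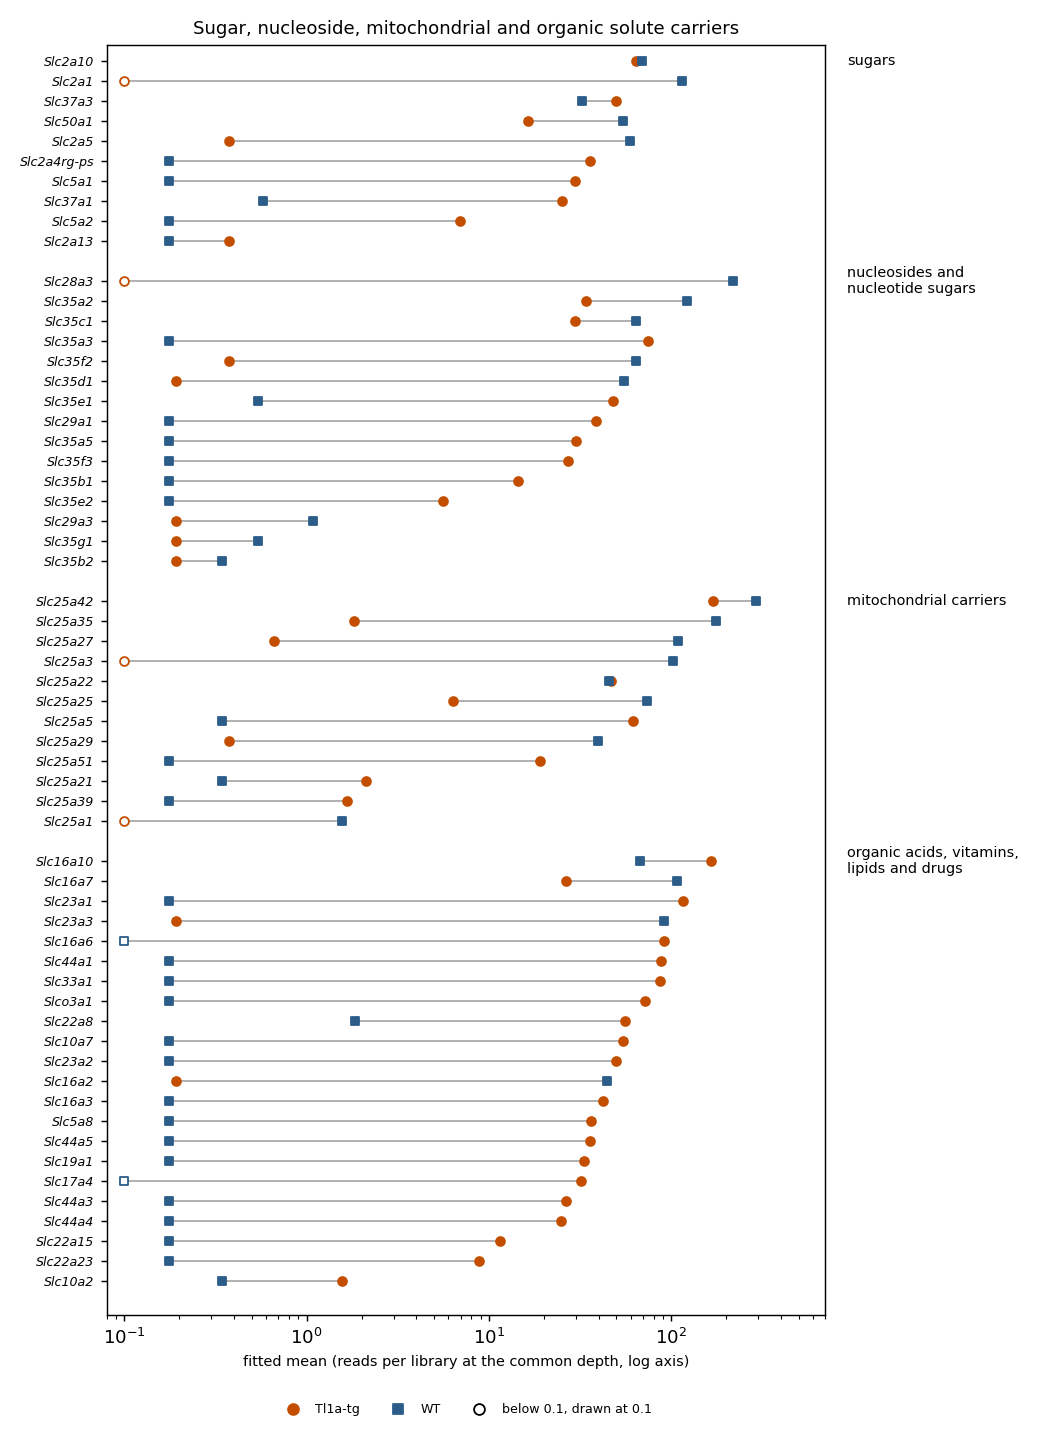
Fitted means of sugar, nucleoside, mitochondrial and organic solute carriers in reads per library (log axis, common depth), with a circle for Tl1a-tg and a square for WT; open marks are values below 0.1, drawn at 0.1. The organic solute genes have most circles to the right of their squares, whereas Slc25a42, Slc25a35, Slc25a27, Slc25a3 and Slc25a25 have the circle to the left.

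Amine and neurotransmitter carriers numbered 6. The taurine transporter Slc6a6 had 104 in Tl1a-tg, against 70.0 in WT (log2 fold change 0.57, 95% interval -5.14 to 6.29, authors' deposited table). Slc17a8, a vesicular glutamate transporter, had 2.91 in Tl1a-tg and 77.6 in WT (DESeq2 p = 0.114, adjusted p = 0.364, from the authors' deposited table), and the creatine transporter Slc6a8 had 20.0 in Tl1a-tg, against 0.342 in WT. The vesicular carriers Slc18a1 and Slc32a1, of amines and GABA, had no reads in either genotype.

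Across the 28 genes measured in both genotypes, no interval excluded 0. Deposited log2 fold changes of the authors ran from -3.03 to 2.62, with 12 positive and 16 negative, beside 512 positive and 867 negative of all measured genes. The median of the 28 was -0.28, beside -0.38 for all measured genes. The sign of this median turned under other filters and scalings. The standard errors were 2.46 to 4.26, so the narrowest interval, that of Slc16a10, still covered -3.52 to 6.12. A p-value was given for 15 of the 28, the smallest being the 0.598 of Slc16a10. Requiring 10 reads in each genotype leaves out the genes with the most unequal values. For 128 of the 153 genes (83.7%), beside 76.4% of all listed genes, the dispersion behind the standard error lay at its ceiling of 13, so that error does not estimate a spread measured between libraries. DESeq2 sets this ceiling at the number of libraries where that is above 10. The SEs, dispersions and p-values given may therefore come from a model of 13 libraries and not of the 6 compared here, and the sources used here do not say.

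**Figure D4:**
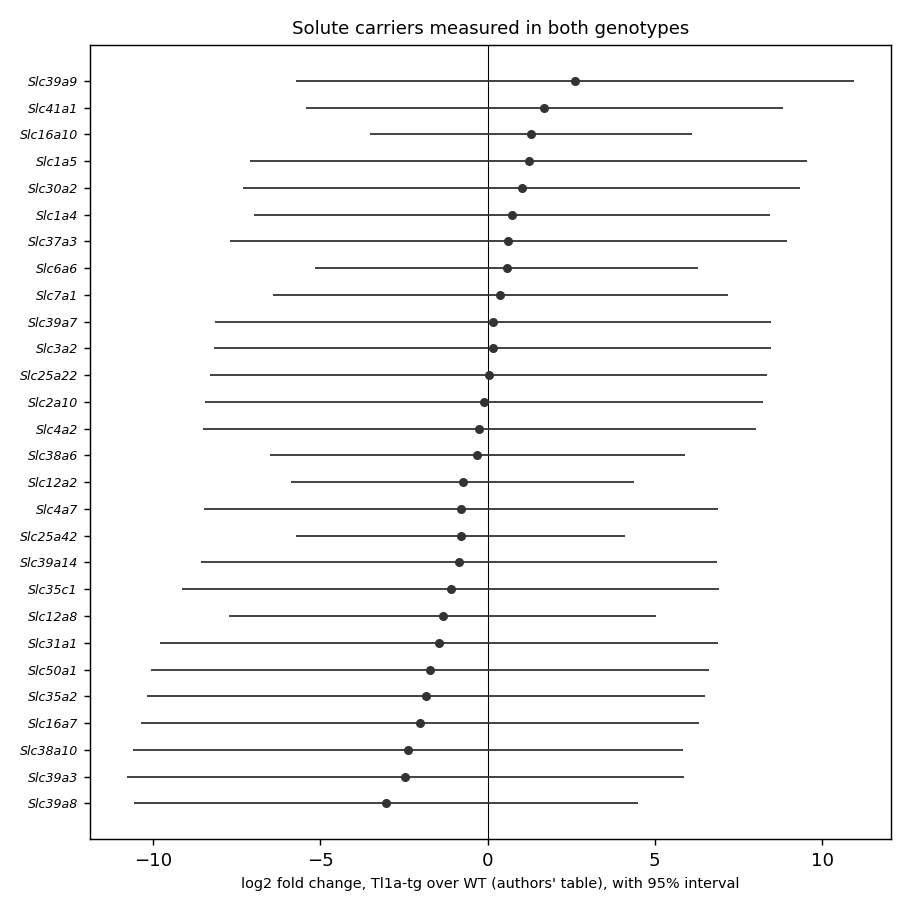
Log2 fold change (Tl1a-tg over WT, authors' deposited table; points) and 95% interval (lines) for the 28 solute carrier genes measured in both genotypes, sorted by size. The values run from 2.62 for Slc39a9 to -3.03 for Slc39a8, and each of the 28 intervals spans 0.

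Pumps, channels and partner proteins that work with solute carriers were set beside them. Of 28 listed such genes, 8 were measured in both genotypes. At the limit of 10 reads per library 4 (14.3%) were read in Tl1a-tg and had no reads in WT, beside 25.3% of all genes, and 2 (7.14%) the other way round, beside 12.4%. The sodium pump subunit Atp1b1 had 87.4 in Tl1a-tg and 172 in WT, the calcium pump genes Atp2a3 and Atp2a2 had 152 and 120 in Tl1a-tg, against 315 and 62.4 in WT, and the kinase gene Wnk1, a regulator of chloride cotransporters, had 141 in Tl1a-tg and 193 in WT. Of the 15 with a p-value, 1 was higher at an unadjusted p below 0.05, beside 10.7% of all genes with one, and 2 were lower, beside 3.91%. The gene that was higher, the phospholipid flippase gene Atp8b1, had 176 in Tl1a-tg and was listed near 0 in WT. It also passed after adjustment in the authors' deposited table (adjusted p = 2.38e-05 by DESeq2). That was 1 of the 11 companion genes with an adjusted p, beside 2.47% of the 1662 genes adjusted. With near-0 means placed at the lowest shared value, 0 of all genes were called, Atp8b1 among those lost. The 2 lower genes, the calcium pump gene Atp2b1 and the channel-kinase gene Trpm7, did not pass after adjustment. Cftr, the chloride channel of crypt secretion, named after its values were seen, had 69.8 in Tl1a-tg and no reads in WT (DESeq2 p = 0.0501, from the authors' deposited table).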

How the data were processed

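RNA of laser-microdissected ileal crypts was profiled in 3 Tl1a-tg and 3 WT libraries, with Kapa stranded mRNA-seq library chemistry per the labels' protocols. Per the submitters' processing notes the authors used RSEM 1.2.15, Bowtie2 2.1.0, DESeq2, Trimmomatic and FastQC, with no role given. The genome build is not given in the sources used here.

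The deposited signal table holds normalized counts by its sheet name. The ratio of 2 columns of a genotype was constant over genes (relative range at most 1.67e-14), so the signal is a fitted mean times a library factor. Numbers of reads were not used here, depth is unknown, and no test was fitted. The authors' deposited log2 fold changes, standard errors, Wald scores and p-values, with Benjamini-Hochberg adjustment over all genes they adjusted, were used. Intervals are 95% Wald intervals. Dispersions were solved from standard errors, checked on 200 genes with known values.

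Members, substrate lists and companion genes were chosen with earlier results of these data known. Named are genes with p below 0.05 and, per substrate group, the 5 with the highest mean, 2 per direction with the largest fold change among those measured in both genotypes, and the 2 highest read in one genotype. A few genes are not reported here. All 153 names matched current symbols or synonyms. Python 3.11.15, pandas 2.3.3, scipy 1.17.1 and statsmodels 0.14.6 were used.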

Additional observations from a re-analysis of the deposited data

Results flagged for a closer look

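A signal appeared for 13 solute carrier genes outside the values compared above, 10 of which are given here. They had no reads in either genotype by their fitted means, yet the authors' deposited table lists a mean over the libraries of their model above 3. The mean was 352 for the cationic amino acid transporter gene Slc7a2. It was 18.5 for Slc25a23, 9.47 for Slc39a13, 7.54 for Slc10a5, 4.48 for Slc38a2, 4.42 for Slc14a1, 3.93 for Slc25a10, 3.87 for Slc10a1, 3.85 for Slc25a11 and 3.58 for Slc20a1. In all, 51 of the 153 genes had a model mean above both fitted means. Fitted means of the 6 libraries do not account for such a mean, and any other libraries of that model were not analysed here.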

How the results depend on the processing

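The count of called solute carriers was 2 at an adjusted p below 0.1, and 2 in the apeglm table, whose adjusted p-values are those of the unshrunken table, so that this count could not differ. It was 0 with near-0 fitted means placed at the lowest shared value, where the smallest adjusted p of all genes was 0.355. That adjustment ran over the 2580 genes with a p-value, and the deposited p-values adjusted over the same genes gave 2. The count at an unadjusted p below 0.05 was 9 with near-0 means so placed too. Leaving out Slc9a3r1 and Slc9a3r2, or also Slc2a4rg-ps and Slc10a3-ubl4 (chosen after seeing the data), could not change it, since none of them has such a p-value. The median log2 fold change of the genes measured in both genotypes, -0.28, turned to 0.16 with a minimum of 50, to 0.73 with a mean over both genotypes of at least 10 (0.68 for all genes chosen so), to 0.13 without a filter and to 0.10 with the median of all measured genes set to 0. It kept its sign with a minimum of 1 and with log2 of fitted means plus 1. For metal carriers the median turned to 1.02 and for sugar carriers to 0.26 with that mean, and to 0.04 and 0.27 with that scaling. The median of ion carriers, -0.76, became -0.74 and -0.38 under these settings, and that of amino acid carriers, 0.27, became 0.38 and 0.65. The 0.38 lies below the 0.68 of all genes chosen so, whereas 0.27 lay above the -0.38 of all measured genes. With at least 50 reads per library, 12 genes were read in Tl1a-tg only (7.84%, beside 8.67% of all genes) and 8 in WT only (5.23%, beside 8.2%), and with at least 1 read 42 (27.5%, beside 28.2%) and 15 (9.8%, beside 14.3%). The cause of these shifts was not tested.

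No paired analysis was possible because the columns hold no value of their own for each library, and for the same reason leaving out a replicate and limma were not run. The smallest standard error of a solute carrier gene measured in both genotypes was 2.46 on the log2 scale, and differences within the intervals given are not excluded.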
